A study of Felis catus with 25 samples.

Results

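The genes described here are the Wnt ligands, their Frizzled (FZD) receptors and LRP co-receptors, the secreted Wnt inhibitors, and the AXIN and TCF/LEF genes inside the cell, in cultured fibroblasts from the cornea of the cat (Felis catus). They were chosen by symbol: every gene of the count tables whose symbol starts with WNT, FZD, SFRP or DKK followed by a digit, and LRP5, LRP6, WIF1, AXIN1, AXIN2, LEF1, TCF7, TCF7L1 and TCF7L2. The rule found 42 of the 13949 genes in the tables, namely 17 WNT, 10 FZD, 3 SFRP and 3 DKK genes and the 9 others named. DKK1, SFRP5, WNT5B and WNT7B were not analysed here.

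Polyadenylated RNA of cells plated in collagen-coated dishes was sequenced in 25 libraries, 5 in each of 5 groups. UK, TrogGW and Trog received transforming growth factor beta 1 (TGFb1) at 1 ng/ml for 2 days, then no TGFb1 but a drug for 3 days, and were harvested at day 5. The drug was 30 uM UK-5099 in UK, an inhibitor of the mitochondrial pyruvate carrier. It was 7.5 uM troglitazone with 10 uM GW9662 in TrogGW and 7.5 uM troglitazone alone in Trog; troglitazone is an agonist and GW9662 an antagonist of the nuclear receptor PPAR-gamma. TGFb was harvested at day 2 after 2 days with TGFb1 at 1 ng/ml, which turns corneal fibroblasts into contractile myofibroblasts. FB was untreated and harvested at day 0, quiescent per the labels. No library of day 2 without TGFb1 or of day 5 without a drug was analysed here, so that TGFb1 and 2 days of culture cannot be told apart, nor can a drug and the 3 days after TGFb1 was taken away. The 5 libraries within each group are biological replicates per the labels, which name no separate cultures or animals, so p-values measure the spread between these libraries, which may be technical.

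Wnt proteins are secreted lipid-modified ligands that bind Frizzled receptors. With an LRP5 or LRP6 co-receptor they stop the AXIN-containing destruction complex from degrading beta-catenin, which then enters the nucleus and acts on target genes through TCF/LEF proteins. Other Wnt signals run through Frizzled without beta-catenin. Secreted frizzled-related proteins (SFRP) and WIF1 bind the ligands. Dickkopf proteins (DKK) such as DKK2 bind the LRP co-receptors, while the divergent DKK3 is counted with the inhibitors here by its symbol. In mice, Dkk2 is needed for the corneal epithelium to take its normal fate.

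Libraries held 14.8 to 25.2 M counts. The myofibroblast marker ACTA2, a smooth muscle actin gene, averaged 3410 CPM (read counts scaled to a common library size) in UK, 9.38 CPM in TrogGW, 270 CPM in Trog, 9000 CPM in TGFb and 1940 CPM in FB. The other myofibroblast markers listed were CNN1, LMOD1 and TNC. In the same order of groups, CNN1 averaged 79.1, 9.46, 12.6, 452 and 134 CPM, so that UK lay below FB, unlike for ACTA2. LMOD1 averaged 66.7, 0.892, 10.8, 226 and 46.9 CPM, and TNC 666, 23.8, 29.5, 7040 and 338 CPM. Of 8 fibroblast markers 7 were in the tables, and their summed level was 90400 to 130000 CPM in UK, 1250 to 2910 CPM in TrogGW, 2990 to 4760 CPM in Trog, 92000 to 111000 CPM in TGFb and 65800 to 80200 CPM in FB. THY1 among them had at most 16 counts in a library. Most of the sum was COL1A1 and COL1A2. Their means were 815 and 323 CPM in TrogGW, 1130 and 1320 CPM in Trog and 61400 and 37200 CPM in TGFb. In the same groups LUM averaged 64.8, 243 and 859 CPM, and DCN 218, 579 and 583 CPM. PDGFRA averaged 198, 88.3 and 146 CPM, and PDGFRB 176, 387 and 107 CPM. Vascular endothelial markers summed to 34 to 85.5 CPM in UK, 44 to 62.6 CPM in TrogGW, 27.3 to 30.5 CPM in Trog, 13.1 to 16.6 CPM in TGFb and 16.8 to 21.9 CPM in FB, but CDH5 had at most 3 counts in any library. KRT3, KRT12, PTPRC and TYR, which define corneal epithelium, leukocytes and melanocytes, had 0 counts everywhere, but other markers on those lists were counted. The 5 leukocyte markers summed to 25.8 to 38.6 CPM in UK, 24.6 to 28.7 CPM in TrogGW, 31.5 to 38.4 CPM in Trog, 19.7 to 27.8 CPM in TGFb and 10.5 to 13.1 CPM in FB. The 6 corneal endothelial markers summed to 894 to 1720 CPM in UK, 1380 to 1490 CPM in TrogGW, 1400 to 1550 CPM in Trog, 2560 to 2890 CPM in TGFb and 2050 to 2240 CPM in FB. Corneal epithelial markers (5 of 9 in the tables) summed to 0.637 to 3.75 CPM in UK, 2.91 to 5.37 CPM in TrogGW, 1.84 to 3.04 CPM in Trog, 3.9 to 5.88 CPM in TGFb and 7.91 to 10.6 CPM in FB. Melanocyte and Schwann cell markers (5 of 6) summed to 3.11 to 22.8 CPM in UK, 10.2 to 12.5 CPM in TrogGW, 14.3 to 19.2 CPM in Trog, 5.11 to 6.42 CPM in TGFb and 5.49 to 8.46 CPM in FB. In such bulk samples fewer cells of a type and less RNA per cell cannot be told apart, and the part of these shifts in the results below was not tested.

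UK replicate 5 stood apart from its group. Across genes, its log2 CPM had a correlation of 0.852 to 0.868 with the rest of its group, while every other pair within a group reached at least 0.988. Its correlation with TGFb libraries was 0.831 to 0.838, with Trog libraries 0.786 to 0.807 and with TrogGW libraries 0.737 to 0.751. Of the 29 genes tested here it lay below the other 4 UK libraries in 13, above them in 8 and within their range in 8. The last include WNT2B, which had 0 counts in all 5 UK libraries. Such counts were not made over all genes, so they are not read as a trait of the 29. UK replicate 5 had the lowest depth, 14.8 M. For the 29 genes, counts of calls in UK and calls against TGFb are therefore given with and without it where it changes them.

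Levels are CPM on library totals scaled by the TMM method. They are not per length, so levels of different genes are not compared. Changes are log2 fold changes ± SE, first-named group over second, and a gene rose or fell where edgeR's quasi-likelihood test gave a Benjamini-Hochberg (BH) adjusted p below 0.05 over 10699 genes. Of the 42 genes, 29 had enough counts to be tested: 8 of 17 WNT, all 10 FZD, 2 of 3 SFRP and 2 of 3 DKK genes, LRP5, LRP6, AXIN1, AXIN2, TCF7, TCF7L1 and TCF7L2. TMM factors were 0.713 to 0.768 in TGFb and 1.28 to 1.38 in TrogGW, and the cause of this difference was not tested. Scaling by library totals alone moved the median change of all genes to 0.73 for Trog and 0.94 for TrogGW against TGFb. For TGFb against FB it moved to -0.39. Where library totals turn the sign of a called change given below for one of the 29 genes, end its call or call one that was not, their value stands beside it.

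In TGFb, 24 of the 29 genes differed from FB, 17 higher and 7 lower. Of all tested genes 68.2% were called, 32.9% higher and 35.3% lower. Scaled by library totals alone, 12 were higher and 10 lower, and 17.3% of all calls were higher instead of 48.2%. The median change of the 29 was 0.60, against -0.02 for all genes. At least 2-fold, 6 were higher (WNT4, WNT11, FZD2, FZD4, FZD6 and SFRP4) and 3 lower (WNT2B, FZD10 and TCF7), where 13.2% of all genes were called, 5.99% higher and 7.22% lower. Ligands rose in 6 of 8 cases and fell in 2, Frizzled genes rose in 5 of 10 and fell in 1, and inhibitors rose in 3 of 4. By library totals these splits were 4 and 2, 3 and 2, and 2 and 2.

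Against TGFb, Trog differed in 24 of the 29 genes, 7 higher and 17 lower, where 81.7% of all genes were called, 42.4% higher and 39.3% lower. By library totals 13 were higher and 9 lower, with 81.5% of all calls higher instead of 51.9%. TrogGW differed from TGFb in 25, 11 higher and 14 lower, where 85.9% were called, 46.6% higher and 39.3% lower. By library totals 16 were higher and 11 lower, with 83.4% of all calls higher instead of 54.3%. At least 2-fold, 4 were higher and 9 lower in Trog, where 29.9% of all genes were called, 15.6% higher and 14.3% lower. In TrogGW 8 were higher and 12 lower at least 2-fold, where 36.9% were called, 20.9% higher and 16% lower. All 4 tested inhibitors fell at least 2-fold in both groups, and all 4 were called lower by library totals too. The median change of the 29 was -0.19 in TrogGW (0.09 for all genes) and -0.50 in Trog (0.04 for all genes). The 2 comparisons share the TGFb libraries, so their likeness is not read as a result.

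UK differed from TGFb in 9 of the 29 genes, 2 higher (SFRP1 and WNT9A) and 7 lower (WNT2, WNT7A, WNT10B, FZD1, FZD2, SFRP4 and TCF7), where 32.1% of all genes were called, 16.9% higher and 15.2% lower. Library totals gave 4 higher and 5 lower, with 73.1% of all calls higher instead of 52.6%. Without UK replicate 5, 20 differed, 8 higher and 12 lower, where 70.8% of all genes were called. The median change was -0.15, also with WNT2B at its bound, against 0.09 for all genes. At least 2-fold, 2 were higher and 5 lower with it, where 17.5% of all genes were called, 9.45% higher and 8% lower, and 2 were higher and 6 lower without it, where 19% were called.

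The ligands WNT2, WNT7A and WNT10B were lower in every day-5 group than in TGFb. WNT10B, which restrains fat cell formation in mice, measured 1.31, 0.294, 0.668, 1.04 and 1.1 CPM in the 5 UK libraries, 0.254 to 0.417 CPM in TrogGW, 0.244 to 0.462 CPM in Trog, 4.06, 5.66, 5.08, 4.78 and 5.79 CPM in TGFb, and 3.17, 4.28, 2.82, 2.27 and 3.13 CPM in FB. No library of a drug group overlapped with TGFb or FB. The change against TGFb was -2.53 ± 0.317 in UK (adjusted p = 0.000172), -3.89 ± 0.187 in TrogGW (adjusted p = 2.75e-12) and -3.93 ± 0.198 in Trog (adjusted p = 2.23e-14). WNT10B rose in TGFb against FB by 0.70 ± 0.15 (adjusted p = 0.000195), with overlapping libraries. By library totals that rise was 0.33, not called by edgeR (adjusted p = 0.0501).

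WNT2 had 7.77, 6.32, 6.58, 5.87 and 7.69 CPM in UK, 0.383, 0.148, 0.0797, 0.139 and 0.169 CPM in TrogGW, 1.37, 1.88, 1.18, 1.16 and 1.43 CPM in Trog, 15, 14.9, 15.1, 13.9 and 12.7 CPM in TGFb, and 7.05, 8.61, 10.1, 9.06 and 8.46 CPM in FB. The groups TrogGW, Trog, UK and TGFb lay one above the other in that order without overlap, and FB overlapped with UK. The change of WNT2 against TGFb was -1.07 ± 0.125 in UK (adjusted p = 0.000115), -6.24 ± 0.19 in TrogGW (adjusted p = 7.29e-15) and -3.35 ± 0.122 in Trog (adjusted p = 6.63e-17). In TGFb it rose over FB by 0.72 ± 0.0906 (adjusted p = 1.17e-07). It was lower still with GW9662 beside troglitazone than with troglitazone alone (-2.90 ± 0.31, adjusted p = 7.43e-07).

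WNT7A, a ligand that human limbal epithelial cells use for corneal differentiation, measured 2.24, 2.35, 2.88, 3.57 and 2.84 CPM in UK, 1.03 to 2 CPM in TrogGW, 0.812 to 1.42 CPM in Trog, 11.2, 8.76, 9.31, 7.76 and 10.6 CPM in TGFb, and 15.3, 10.5, 13.7, 10 and 10.8 CPM in FB. It fell against TGFb in all drug groups, with changes of -1.77 ± 0.171 in UK (adjusted p = 3.22e-05), -2.60 ± 0.152 in TrogGW (adjusted p = 3.99e-11) and -3.11 ± 0.152 in Trog (adjusted p = 1.35e-14). It was also slightly lower in TGFb than in FB (-0.33 ± 0.116, adjusted p = 0.0149), a call lost without FB replicate 1 (-0.23, adjusted p = 0.0658).

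WNT4, a ligand needed for kidney tubule formation in mice, was near the limit of counting in FB and higher in every other group. It had 1.04, 1.13, 1.03, 1.08 and 0.0915 CPM in UK, 4.52, 3.66, 4.07, 4.27 and 3.64 CPM in TrogGW, 2.53, 2.92, 2.44, 3.17 and 3.04 CPM in Trog, 1.4, 1.4, 0.846, 1.49 and 1.12 CPM in TGFb, and 0, 0.101, 0.261, 0.214 and 0.165 CPM in FB. TrogGW lay above Trog, and Trog above TGFb, with no overlap. The rise in TGFb over FB was 2.95 ± 0.371 (adjusted p = 1.17e-07), that over TGFb was 1.70 ± 0.165 in TrogGW (adjusted p = 3.58e-08) and 1.18 ± 0.175 in Trog (adjusted p = 1.92e-06). The 4 UK libraries other than replicate 5 stood at 1.03 to 1.13 CPM, and no change against TGFb was called with replicate 5 (-0.45 ± 0.389, adjusted p = 0.422) or without it (-0.21 ± 0.228, adjusted p = 0.425).

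WNT11 and WNT5A are ligands best known for signals that do not need beta-catenin. WNT11 had 5.53, 5.64, 4.52, 5.37 and 20.2 CPM in UK, 4.14 to 6.25 CPM in TrogGW, 6.1 to 10.1 CPM in Trog, 13.5, 11.1, 14.2, 12.1 and 12.7 CPM in TGFb, and 2.69, 2.92, 4.08, 3.29 and 2.91 CPM in FB. It rose 4-fold in TGFb over FB (2.00 ± 0.112, adjusted p = 3.09e-14) and was lower than TGFb in TrogGW (-1.34 ± 0.122, adjusted p = 1.45e-08). Its fall in Trog (-0.69 ± 0.113, adjusted p = 8.17e-06) was 0.00 by library totals. In UK it was called lower only without replicate 5 (-1.27 ± 0.105, adjusted p = 1.72e-09, against -0.64 ± 0.398, adjusted p = 0.255, with it).

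WNT5A had 12, 13.9, 13.6, 14.2 and 3.57 CPM in UK, 18.2, 17.1, 16.3, 13.3 and 19.2 CPM in TrogGW, 9.28, 9.23, 10.1, 9.92 and 9.77 CPM in Trog, 17.5, 14.6, 16.5, 13.7 and 14.9 CPM in TGFb, and 10.4, 9.62, 10.7, 11.3 and 8.3 CPM in FB. TrogGW and TGFb overlapped, as did Trog and FB, and the first pair lay above the second. Neither pair differed by a called change, but edgeR on library totals called both. There TrogGW exceeded TGFb by 0.97 (adjusted p = 3.9e-09) and Trog exceeded FB by 0.25 (adjusted p = 0.0144). WNT5A was higher in TGFb than in FB (0.62 ± 0.0902, adjusted p = 1.32e-06) and higher in TrogGW than in Trog (0.80 ± 0.092, adjusted p = 1.67e-06). The fall in Trog against TGFb (-0.68 ± 0.0806, adjusted p = 7.46e-08) was 0.01 by library totals. Without UK replicate 5, WNT5A was lower in UK than in TGFb by a small step (-0.20 ± 0.0879, adjusted p = 0.0489), which was not called with it (-0.42 ± 0.306, adjusted p = 0.331).

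WNT2B and WNT9A were counted rarely. WNT2B, a ligand expressed at the margin of the developing retina in chicks, had 0 counts in all 5 UK libraries, 0.678 to 1.14 CPM in TrogGW, 0 to 0.203 CPM in Trog, 0 to 0.124 CPM in TGFb and 0.314 to 0.597 CPM in FB. With the 0 set to a floor of 3 counts over the group, UK was at least 14.1-fold lower than FB (45 counts). WNT2B fell in TGFb against FB (-3.04 ± 0.565, adjusted p = 3.71e-05) and was higher in TrogGW than in Trog (3.05 ± 0.391, adjusted p = 5.07e-06). It overlaps ST7L in the RefSeq annotation, and the strand setting of the counting was not given, so whether reads of the pair were kept apart is unknown. WNT9A, which acts in joint formation in mice, had 1.59 to 2.3 CPM in UK, 0.536 to 2.03 CPM in TrogGW, 0.365 to 0.783 CPM in Trog, 0.303 to 1.28 CPM in TGFb and 0.105 to 0.554 CPM in FB. UK lay above TGFb without overlap (1.45 ± 0.325, adjusted p = 0.0063). WNT9A was also higher in TrogGW than in Trog (1.37 ± 0.319, adjusted p = 0.00131). Its rises in TGFb over FB (0.90, adjusted p = 0.0455) and in TrogGW over TGFb (0.92, adjusted p = 0.0276) were weak. The first was lost without any 1 of FB replicates 3 and 4 and TGFb replicates 2 and 5 (0.60 to 0.80, adjusted p = 0.0983 to 0.211) and by library totals (0.53, adjusted p = 0.21). The second was lost without any 1 of TrogGW replicates 2, 3 and 4 and TGFb replicates 1, 3 and 4 (0.71 to 0.88, adjusted p = 0.0516 to 0.0852).

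**Figure D1:**
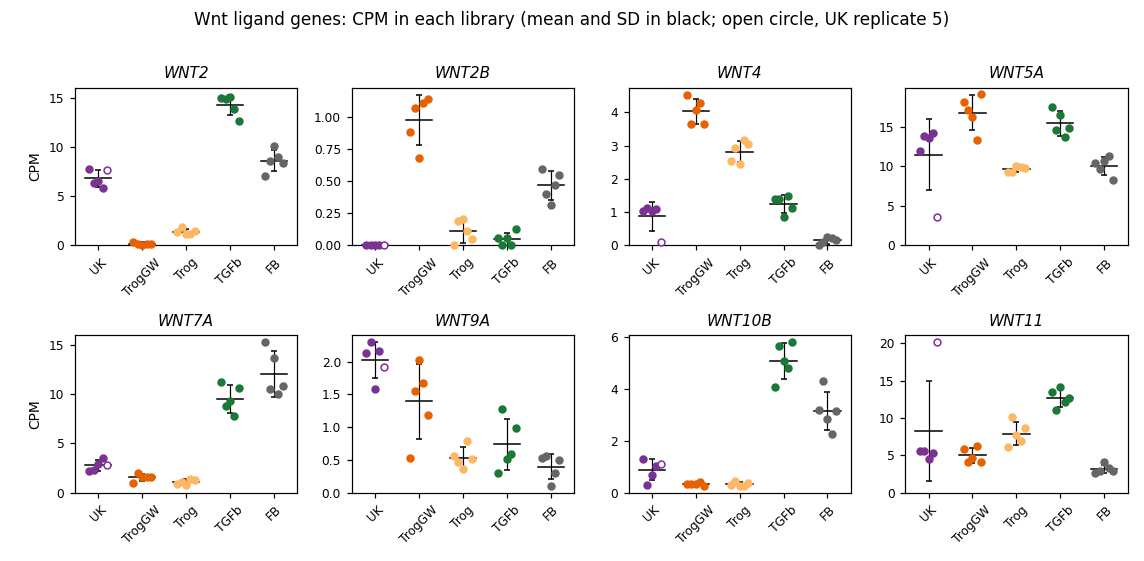
Level of the 8 tested Wnt ligand genes in CPM (vertical axis, linear, own scale per gene) in each of the 25 libraries, by group; points are libraries, black lines the mean and SD, n = 5 per group, and the open circle is UK replicate 5. WNT2, WNT7A and WNT10B lie lower in the 3 drug groups than in TGFb, whereas WNT4 reaches 3.64 to 4.52 CPM in TrogGW against 0 to 0.261 CPM in FB.

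Among the Frizzled receptors, those that rose in TGFb over FB were FZD1, FZD2, FZD3, FZD4 and FZD6. By library totals FZD3 was not called (0.26, adjusted p = 0.0582), nor was FZD1. FZD2 measured 14.9, 13.1, 13.3, 16.9 and 15.6 CPM in UK, 1.61, 3.37, 3.67, 3.47 and 4.48 CPM in TrogGW, 1.42, 2.62, 2.07, 2.05 and 1.29 CPM in Trog, 24.9, 22.6, 23.7, 17.8 and 17.5 CPM in TGFb, and 7.29, 5.94, 7.89, 7.22 and 7.36 CPM in FB. The order TrogGW and Trog, FB, UK, TGFb held with no overlap other than that between TrogGW and Trog. The rise in TGFb over FB was 1.58 ± 0.103 (adjusted p = 5.09e-13). Its change against TGFb was -0.53 ± 0.143 in UK (adjusted p = 0.0165, but -0.30 with adjusted p = 0.0974 by library totals), -2.69 ± 0.173 in TrogGW (adjusted p = 1.47e-10) and -3.48 ± 0.144 in Trog (adjusted p = 6.85e-16).

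FZD6, which orients hair follicles in mice, had 146, 147, 148, 138 and 103 CPM in UK, 64, 77.6, 78.4, 83.1 and 77.7 CPM in TrogGW, 94.5, 85.3, 99.2, 93.3 and 84.8 CPM in Trog, 142, 121, 131, 119 and 121 CPM in TGFb, and 51.1, 50.1, 52.6, 58.1 and 53 CPM in FB. All groups lay above FB. The rise in TGFb over FB was 1.26 ± 0.0556 (adjusted p = 2.18e-16). The falls against TGFb of -0.74 ± 0.067 in TrogGW (adjusted p = 1.59e-08) and -0.47 ± 0.0572 in Trog (adjusted p = 1.02e-07) turned to 0.12 and 0.21 by library totals. UK remained 1.36 ± 0.123 above FB (adjusted p = 1.16e-05). Against TGFb, FZD6 in UK was 0.10 ± 0.124 (adjusted p = 0.575), and 0.19 ± 0.0571 without replicate 5 (adjusted p = 0.00623).

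FZD4, the receptor of Norrin in retinal vessels, had 19.1, 15.2, 23.9, 23.4 and 6.22 CPM in UK, 10.3, 12.1, 12, 12.8 and 9.14 CPM in TrogGW, 16.2, 14.6, 15.6, 17.1 and 17.3 CPM in Trog, 22.9, 21.7, 23.5, 22.1 and 24.3 CPM in TGFb, and 10.5, 11.6, 10.8, 13.5 and 9.56 CPM in FB. TGFb stood above TrogGW, Trog and FB in every library, by 1.02 ± 0.0815 over FB (adjusted p = 2.95e-11). TrogGW was lower than TGFb (-1.02 ± 0.0854, adjusted p = 5.23e-09) and overlapped with FB. By library totals that change was -0.17, not called by edgeR (adjusted p = 0.103). The change in Trog (-0.50 ± 0.0675, adjusted p = 4.9e-07) was 0.18 by library totals.

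FZD1 measured 61, 45.3, 56.4, 64.1 and 24.8 CPM in UK, 40.3 to 48.3 CPM in TrogGW, 77.5 to 89.1 CPM in Trog, 83.4 to 101 CPM in TGFb and 62.7 to 81.4 CPM in FB. It was lower than in TGFb in UK (-0.86 ± 0.227, adjusted p = 0.0148, and -0.69 ± 0.0812 without replicate 5, adjusted p = 2.93e-07) and in TrogGW (-1.07 ± 0.0619, adjusted p = 3.15e-11). With all libraries, the UK change was -0.61 and not called by edgeR on library totals (adjusted p = 0.0852). The Trog change of -0.18 became 0.51 by library totals, and the rise in TGFb over FB of 0.36 became -0.02. FZD1 overlaps CDK14 in the annotation. FZD3 had 4.02 to 5.55 CPM in UK replicates 1 to 4 and 21.5 CPM in replicate 5, 5.36 to 6.67 CPM in TrogGW, 2.24 to 3.26 CPM in Trog, 5.9 to 8.29 CPM in TGFb and 3.53 to 5.28 CPM in FB. Trog was lowest, -1.25 ± 0.127 against TGFb (adjusted p = 5.8e-09), and TrogGW exceeded Trog by 1.06 ± 0.122 (adjusted p = 1.57e-06). In UK against TGFb the change was 0.18 ± 0.467 (adjusted p = 0.815) with replicate 5 and a fall of -0.60 ± 0.13 (adjusted p = 0.000422) without it.

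FZD7, FZD8, FZD9 and FZD10 were higher in TrogGW than in TGFb, and FZD7, FZD8 and FZD10 were higher in Trog as well. FZD9 had 0.493, 0.539, 0.771, 0.406 and 1.37 CPM in UK, 2.99, 3.63, 3.67, 4.48 and 5.33 CPM in TrogGW, 0.644, 1.23, 1.26, 0.933 and 0.921 CPM in Trog, 1.27, 0.73, 0.846, 0.672 and 0.809 CPM in TGFb, and 0.776, 0.655, 0.836, 0.684 and 0.714 CPM in FB. TrogGW stood apart, and the other groups overlapped. The change in TrogGW was 2.19 ± 0.215 against TGFb (adjusted p = 4.16e-08) and 2.00 ± 0.201 against Trog (adjusted p = 3.87e-07). That of Trog against TGFb was 0.20 ± 0.249 (adjusted p = 0.463), but 0.88 and called by library totals (adjusted p = 0.00184).

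FZD7, a receptor of stem cells in human tissues, had 6.24, 4.85, 5.4, 6.72 and 1.28 CPM in UK, 10.2 to 13.3 CPM in TrogGW, 6.66 to 7.77 CPM in Trog, 3.5 to 5.82 CPM in TGFb and 3.17 to 4.91 CPM in FB. It rose against TGFb by 1.23 ± 0.13 in TrogGW (adjusted p = 1.19e-07) and 0.59 ± 0.125 in Trog (adjusted p = 0.000184). FZD8 had 0.183 to 0.72 CPM in UK, 1.3 to 2.28 CPM in TrogGW, 1.38 to 2 CPM in Trog, 0.224 to 0.733 CPM in TGFb and 0.55 to 1.05 CPM in FB. Its rise against TGFb was 1.82 ± 0.296 in TrogGW (adjusted p = 2.07e-05) and 1.85 ± 0.265 in Trog (adjusted p = 1.23e-06).

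FZD10 had 20 counts over the UK libraries, 82 over TrogGW, 62 over Trog, 3 over TGFb and 18 over FB. Its levels were 0.0451 to 0.245 CPM in UK replicates 1 to 4 and 1.01 CPM in replicate 5, 0.421 to 0.888 CPM in TrogGW, 0.415 to 0.644 CPM in Trog, 0 to 0.0609 CPM in TGFb and 0.101 to 0.275 CPM in FB. The ratio to TGFb was 16.8 in TrogGW (95% counting interval 5.54 to 82.9) and 13.5 in Trog (4.42 to 67.4), both called by edgeR. Intervals and floors cover counting error only. FZD5, which acts in the developing eye of mice, stayed between 0.274 and 2.43 CPM over all libraries. It was called in 1 of the 9 comparisons, TrogGW over Trog (0.45, adjusted p = 0.0188, and 0.37, adjusted p = 0.054, without Trog replicate 1). Library totals called it also in TrogGW over TGFb (1.12), Trog over TGFb (0.50) and TrogGW over FB (0.83).

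The co-receptor genes LRP5 and LRP6 both rose in TGFb over FB, and in TrogGW against TGFb LRP5 fell and LRP6 rose. LRP5, a gene that sets bone mass in humans, had 138, 139, 151, 180 and 114 CPM in UK, 57.1, 52.8, 55.9, 54.3 and 63.8 CPM in TrogGW, 84.7, 80.8, 84.1, 90.1 and 83.6 CPM in Trog, 146, 128, 123, 112 and 119 CPM in TGFb, and 74.6, 55.6, 71.9, 64.8 and 74.6 CPM in FB. UK overlapped with TGFb and stood 1.08 ± 0.144 above FB (adjusted p = 0.00017). Its change against TGFb was 0.20 ± 0.136 (adjusted p = 0.304), and 0.27 ± 0.0798 without replicate 5 (adjusted p = 0.00473). With all libraries it was 0.44 and called by library totals (adjusted p = 0.0493). TrogGW was below TGFb (-1.15 ± 0.0685, adjusted p = 5.05e-11). The change in Trog, -0.57 ± 0.0594 (adjusted p = 8.33e-09), was 0.11 by library totals.

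LRP6 had 82.7, 77.7, 93.5, 104 and 8.33 CPM in UK, 97.8, 83, 77.6, 81.4 and 83.5 CPM in TrogGW, 68.5, 49.9, 57.6, 69.2 and 62 CPM in Trog, 62.2, 57, 55.2, 51.3 and 59.5 CPM in TGFb, and 33.1, 35.1, 37.5, 44.1 and 38.2 CPM in FB. UK replicate 5 lay far below its group, and UK against TGFb was 0.36 ± 0.48 with it (adjusted p = 0.614) and 0.65 ± 0.0756 without it (adjusted p = 2.41e-07). LRP6 rose in TGFb over FB by 0.60 ± 0.0674 (adjusted p = 1.85e-08), and LRP5 by 0.88 ± 0.072 (adjusted p = 4.59e-11). TrogGW was 0.57 ± 0.065 above TGFb for LRP6 (adjusted p = 3.08e-07), opposite to LRP5.

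**Figure D2:**
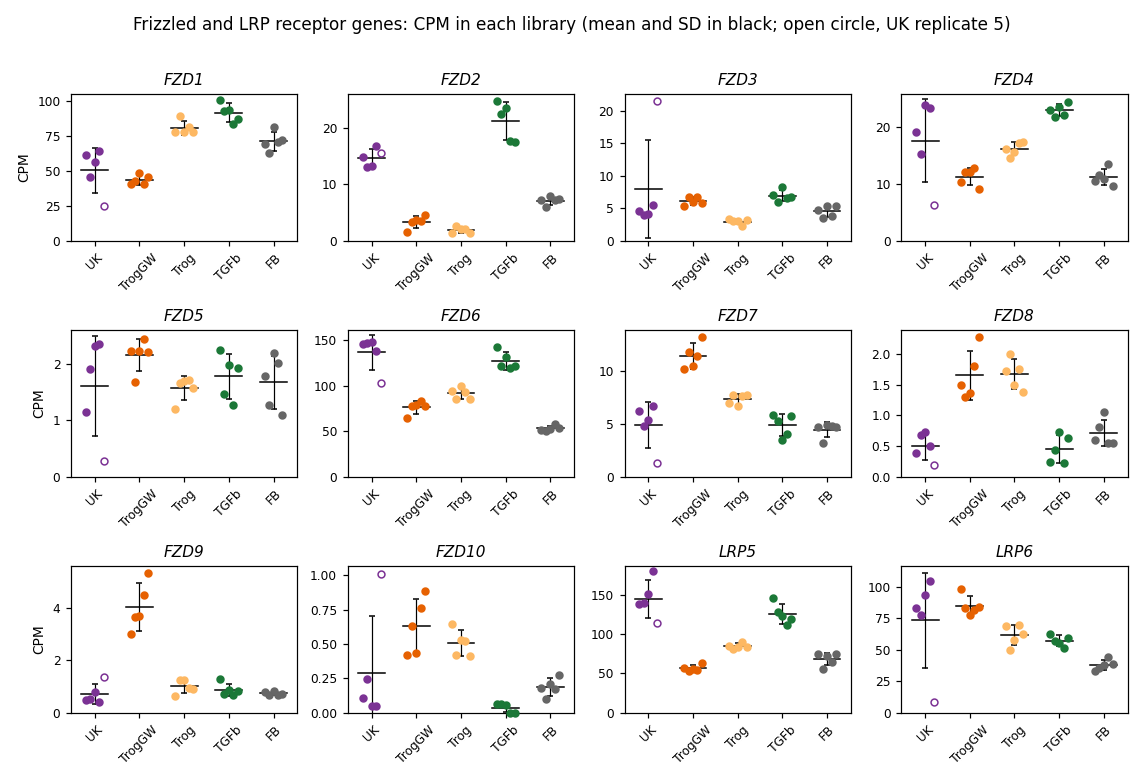
Level of the 10 Frizzled and 2 LRP genes in CPM (vertical axis, linear, own scale per gene) in each of the 25 libraries, by group; points are libraries, black lines the mean and SD, n = 5 per group, and the open circle is UK replicate 5. FZD2 is lowest in TrogGW and Trog and highest in TGFb, FZD9 is high in TrogGW, and UK replicate 5 lies far from its group for FZD3 (21.5 CPM) and LRP6 (8.33 CPM).

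Among the secreted inhibitors, DKK2 had 1140, 549, 904, 740 and 1260 CPM in UK, 41.6, 53.1, 49.1, 41.1 and 50.3 CPM in TrogGW, 53, 59.1, 67, 59.5 and 53.2 CPM in Trog, 1390, 1180, 1130, 1150 and 1180 CPM in TGFb, and 1150, 1050, 1140, 1180 and 1150 CPM in FB. The troglitazone groups lay far below all other libraries. DKK2 fell against TGFb, with changes of -4.68 ± 0.0944 in TrogGW (adjusted p = 6.33e-17) and -4.37 ± 0.078 in Trog (adjusted p = 6.43e-22). In TGFb it was 0.09 ± 0.0544 against FB (adjusted p = 0.17), but -0.29 and called by library totals (adjusted p = 2.68e-06). In UK the change was -0.39 ± 0.209 (adjusted p = 0.189), and -0.53 ± 0.135 without replicate 5 (adjusted p = 0.00175). UK exceeded Trog by 3.98 ± 0.238 (adjusted p = 1.02e-06).

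SFRP1, a frizzled-related protein that binds Wnt ligands, rose in UK and fell in both troglitazone groups. It had 124, 80.6, 111, 120 and 8.69 CPM in UK, 2.11, 2.15, 1.95, 1.81 and 3.3 CPM in TrogGW, 7.04, 7.73, 11.6, 8.47 and 5.48 CPM in Trog, 23.4, 20.8, 21.4, 19.7 and 20.7 CPM in TGFb, and 8.9, 9.87, 12.8, 11.5 and 10 CPM in FB. UK replicates 1 to 4 lay above every other library and replicate 5 below all of TGFb. UK against TGFb was 2.07 ± 0.528 (adjusted p = 0.0126), and 2.36 ± 0.0982 without replicate 5 (adjusted p = 5.2e-14). With all libraries, the call was lost in limma voom (1.67, adjusted p = 0.0835). The change against TGFb was -3.24 ± 0.123 in TrogGW (adjusted p = 1.26e-13) and -1.39 ± 0.124 in Trog (adjusted p = 7.26e-10). SFRP1 rose in TGFb over FB by 0.99 ± 0.0861 (adjusted p = 1.49e-10).

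DKK3, a divergent Dickkopf, had 78.3, 81.4, 72, 76.6 and 121 CPM in UK, 46.3, 36.7, 38.2, 32.9 and 44.5 CPM in TrogGW, 29.1, 31.2, 35.8, 29.8 and 32.4 CPM in Trog, 99.2, 93.7, 88.3, 101 and 93.9 CPM in TGFb, and 80.1, 77.6, 81.9, 78.1 and 79.4 CPM in FB. Its change against TGFb was -1.26 ± 0.0787 in TrogGW (adjusted p = 9.17e-11) and -1.59 ± 0.0596 in Trog (adjusted p = 1.01e-16). The small rise in TGFb over FB (0.26) was -0.11 by library totals. UK against TGFb was -0.15 ± 0.149 (adjusted p = 0.486), and -0.30 ± 0.0554 without replicate 5 (adjusted p = 6.66e-05).

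SFRP4, mutated in a human bone disease, had 0.328, 0.343, 0.0514, 0.271 and 0.183 CPM in UK, 0.159 to 0.296 CPM in TrogGW, 0 to 0.043 CPM in Trog, 0.546 to 1.12 CPM in TGFb and 0.22 to 0.513 CPM in FB. It rose in TGFb over FB by 1.29 ± 0.314 (adjusted p = 0.000786) and fell against TGFb, with changes of -1.82 ± 0.383 in UK (adjusted p = 0.00442) and -1.93 ± 0.305 in TrogGW (adjusted p = 1.45e-05). Trog held 3 counts against 69 in TGFb, a ratio of 35.1 in favour of TGFb (95% counting interval 11.5 to 175), called by edgeR. TrogGW held 29 counts, 9.06 times Trog per scaled total (2.81 to 46.5). SFRP4 overlaps NME8 in the annotation.

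TCF7, which encodes the T-cell factor TCF-1, spanned the widest range of the named genes with counts in every library, with a 101-fold ratio between the highest and lowest group mean. It had 0.383, 0.735, 0.206, 0.496 and 0.549 CPM in UK, 38.1, 52.1, 59.1, 44.1 and 46.3 CPM in TrogGW, 12.8, 9.96, 11.5, 11.6 and 12.5 CPM in Trog, 0.849, 1.58, 0.959, 1.34 and 1.06 CPM in TGFb, and 4.96, 6.09, 6.53, 6.5 and 6.87 CPM in FB. No 2 groups overlapped. It fell in TGFb against FB (-2.43 ± 0.163, adjusted p = 9.92e-13). Against TGFb it rose by 5.37 ± 0.159 in TrogGW (adjusted p = 5.21e-15) and 3.34 ± 0.143 in Trog (adjusted p = 1.23e-15), and fell in UK (-1.28 ± 0.318, adjusted p = 0.011). TrogGW exceeded Trog by 2.04 ± 0.107 (adjusted p = 4.78e-10).

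TCF7L2, a TCF gene linked to type 2 diabetes in humans, had 94, 89.1, 93.5, 111 and 352 CPM in UK, 80, 73.9, 70.5, 69.1 and 70.2 CPM in TrogGW, 91.4, 89.2, 90.3, 100 and 98.3 CPM in Trog, 76.2, 76.1, 73.9, 71 and 67 CPM in TGFb, and 122, 116, 109, 116 and 125 CPM in FB. Leaving UK replicate 5 aside, its mean was highest in FB, and TGFb fell below FB (-0.69 ± 0.0506, adjusted p = 6.01e-12). It rose in Trog over TGFb by 0.37 ± 0.0517 (adjusted p = 1.04e-06), whereas TrogGW was -0.00 ± 0.053 against TGFb (adjusted p = 0.96) and 0.85 by library totals. UK against TGFb was 1.02 ± 0.382 (adjusted p = 0.0654; called at 1.17 by library totals, adjusted p = 0.0153), and 0.41 ± 0.0636 without replicate 5 (adjusted p = 9.58e-06).

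TCF7L1, often a repressor of Wnt targets, had 64.8, 61.8, 70.6, 74.4 and 9.97 CPM in UK, 44.6 to 48.3 CPM in TrogGW, 37.2 to 40.8 CPM in Trog, 52.4 to 61.8 CPM in TGFb and 34.5 to 41.3 CPM in FB. It rose in TGFb over FB by 0.63 ± 0.0584 (adjusted p = 5.04e-10), and its falls against TGFb in TrogGW (-0.33) and Trog (-0.57) became 0.53 and 0.11 by library totals. Without UK replicate 5 it was higher in UK than in TGFb (0.23 ± 0.0629, adjusted p = 0.00304), against -0.04 ± 0.407 (adjusted p = 0.957) with it. The scaffold gene AXIN1 had 52.4, 59.1, 56.3, 66.4 and 40.1 CPM in UK, 68.5 to 81.6 CPM in TrogGW, 85.9 to 97 CPM in Trog, 46.6 to 50.7 CPM in TGFb and 53.1 to 62.6 CPM in FB. It rose against TGFb by 0.63 ± 0.0527 in TrogGW (adjusted p = 5.62e-09) and 0.88 ± 0.05 in Trog (adjusted p = 1.97e-13). In UK the AXIN1 change against TGFb was 0.17 ± 0.136 (adjusted p = 0.373), and 0.27 ± 0.0644 without replicate 5 (adjusted p = 0.000991).

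AXIN2, itself a common target of beta-catenin that limits the signal, had 0.784 to 1.46 CPM in UK, 1.19 to 2.33 CPM in TrogGW, 0.346 to 0.558 CPM in Trog, 0.508 to 1.21 CPM in TGFb and 1.02 to 1.41 CPM in FB. TrogGW exceeded Trog by 1.69 ± 0.242 (adjusted p = 1.57e-05). It exceeded TGFb by 1.02 ± 0.267 (adjusted p = 0.00198), with overlapping libraries. The fall in TGFb against FB (-0.68 ± 0.242, adjusted p = 0.0156) was not called without TGFb replicate 3 (-0.54, adjusted p = 0.0595). That in Trog against TGFb (-0.67 ± 0.284, adjusted p = 0.0336) was not called without TGFb replicate 1 (-0.46, adjusted p = 0.158), TGFb replicate 5 (-0.64, adjusted p = 0.0687) or Trog replicate 2 (-0.57, adjusted p = 0.0843), and was 0.01 by library totals. AXIN2 overlaps CEP112 in the annotation.

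**Figure D3:**
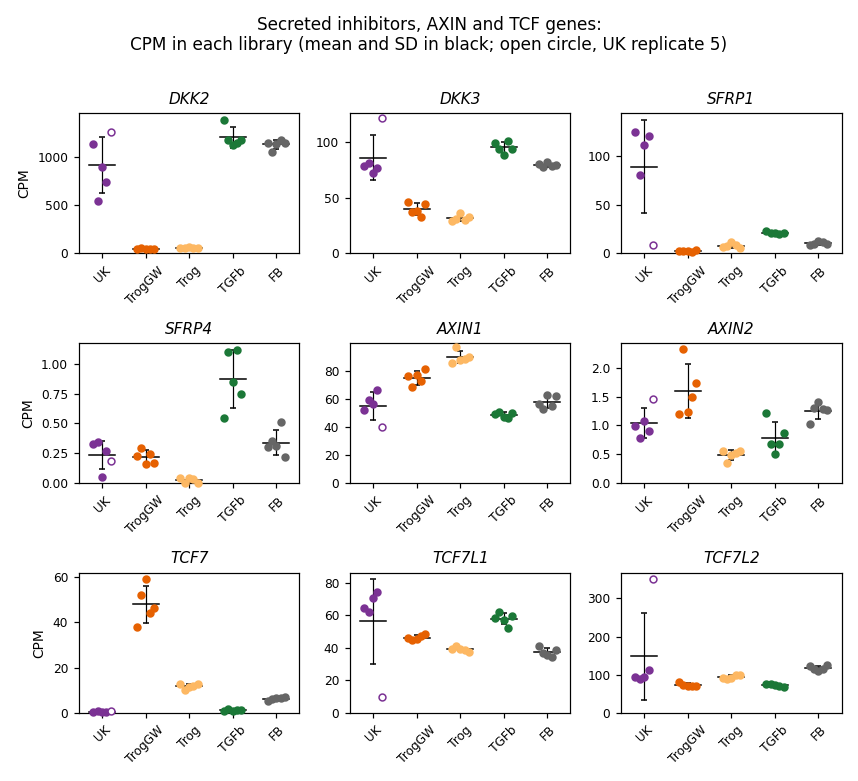
Level of the 4 tested secreted inhibitor genes, AXIN1, AXIN2 and the 3 tested TCF genes in CPM (vertical axis, linear, own scale per gene) in each of the 25 libraries, by group; points are libraries, black lines the mean and SD, n = 5 per group, and the open circle is UK replicate 5. DKK2 is at 41.1 to 67 CPM in the troglitazone groups and at 549 CPM or more elsewhere, and TCF7 is highest in TrogGW.

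Of the 13 genes with too few counts for a test, DKK4 and WNT9B had 0 counts in all libraries, and 11 had between 1 and 94 counts over the series. LEF1, the remaining TCF/LEF gene, had 6 counts over the UK libraries, 38 over TrogGW, 18 over Trog, 11 over TGFb and 21 over FB. WNT1 had 20 counts in TrogGW, 1 in Trog, 2 in TGFb and 0 in UK and FB, and WNT3 had 21 in TrogGW, 1 in FB and 0 in UK, Trog and TGFb. With the 0 set to a floor of 3 counts over the group, WNT3 was at least 6.56-fold higher in TrogGW than in Trog. WNT16 had 3 counts in UK, 3 in TrogGW, 28 in Trog, 0 in TGFb and 2 in FB, so that Trog was at least 6.11-fold higher than TGFb. SFRP2 had 6 counts in UK, 1 in TrogGW, 2 in Trog, 17 in TGFb and 2 in FB, and WNT6 had 13 counts in TrogGW and 2 to 4 in each other group. The remaining WIF1, WNT3A, WNT8A, WNT8B and WNT10A had at most 3 counts in a group. In the RefSeq gene table WNT10B and WNT1, WNT6 and WNT10A, WNT9A and WNT3A, and WNT3 and WNT9B are direct neighbours among coding genes.

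With GW9662 beside troglitazone, 26 of the 29 genes differed in TrogGW from Trog, 16 higher and 10 lower, where 69.5% of all genes were called, 35.1% higher and 34.3% lower. Library totals gave 16 higher and 7 lower, with 68.2% of all calls higher instead of 50.6%. The median was 0.33, against 0.01 for all genes. At least 2-fold, 7 were higher (TCF7, FZD3, FZD9, WNT2B, WNT9A, AXIN2 and SFRP4) and 2 lower (WNT2 and SFRP1), where 15.3% of all genes were called, 9.85% higher and 5.42% lower. WNT7A was called higher (0.51 ± 0.211, adjusted p = 0.0431), but not without any 1 of TrogGW replicates 2 to 5 and Trog replicates 1 to 3 (0.40 to 0.51, adjusted p = 0.068 to 0.123). For DKK2, WNT10B and FZD8 the differences between TrogGW and Trog were -0.31 ± 0.0814 (adjusted p = 0.00309), 0.04 ± 0.288 (adjusted p = 0.909) and -0.03 ± 0.184 (adjusted p = 0.891). That of DKK2 was -0.14 and not called by edgeR on library totals (adjusted p = 0.141).

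Of the same 29 genes, UK differed from Trog in 19, 13 higher and 6 lower, where 42.6% of all genes were called, 22.5% higher and 20.1% lower. By library totals 9 were higher and 8 lower, with 24% of all calls higher instead of 52.8%. The median was 0.53, against 0.04 for all genes. Without UK replicate 5 it was 27, 17 higher and 10 lower, where 73.5% were called. All 4 inhibitors were higher in UK, with SFRP1 at 3.46 ± 0.583 (adjusted p = 0.00083) and DKK2 at 3.98 ± 0.238 named above, also by library totals. TCF7 was lower (-4.61 ± 0.263, adjusted p = 8.47e-07) and FZD2 higher (2.96 ± 0.207, adjusted p = 2.32e-06). FZD3 was higher by 1.41 ± 0.48 (adjusted p = 0.0363), by 0.65 ± 0.147 without UK replicate 5 (adjusted p = 0.000699), and was not called without any 1 of the 5 Trog libraries (1.33 to 1.45, adjusted p = 0.0644 to 0.0824) or by library totals (0.87, adjusted p = 0.105). The doses were 30 uM UK-5099 and 7.5 uM troglitazone.

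Against FB, 11 of the 29 genes differed in UK, 7 higher and 4 lower, where 39.6% of all genes were called, 20.4% higher and 19.3% lower. Without UK replicate 5 it was 20, 12 higher and 8 lower, where 77.3% were called. In TrogGW 25 differed, 15 higher and 10 lower, where 85.2% were called, 43.6% higher and 41.6% lower. In Trog 24 differed, 12 higher and 12 lower, where 81.9% were called, 41.1% higher and 40.8% lower. Library totals gave 7 higher and 5 lower for UK, 19 and 9 for TrogGW and 16 and 9 for Trog, with 40.3%, 71.8% and 65.9% of all calls higher instead of 51.4%, 51.2% and 50.2%. DKK2 was below FB in TrogGW (-4.59 ± 0.0844, adjusted p = 1.27e-16) and in Trog (-4.28 ± 0.0686, adjusted p = 1.81e-20). SFRP1 stood above FB in UK by 3.07 ± 0.556 (adjusted p = 0.0013) and below it in TrogGW (-2.24 ± 0.152, adjusted p = 5.36e-10). WNT4 was above FB in all drug groups, by 2.53 ± 0.587 in UK (adjusted p = 0.00593), 4.66 ± 0.275 in TrogGW (adjusted p = 8.41e-11) and 4.15 ± 0.286 in Trog (adjusted p = 4.26e-11).

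**Figure D4:**
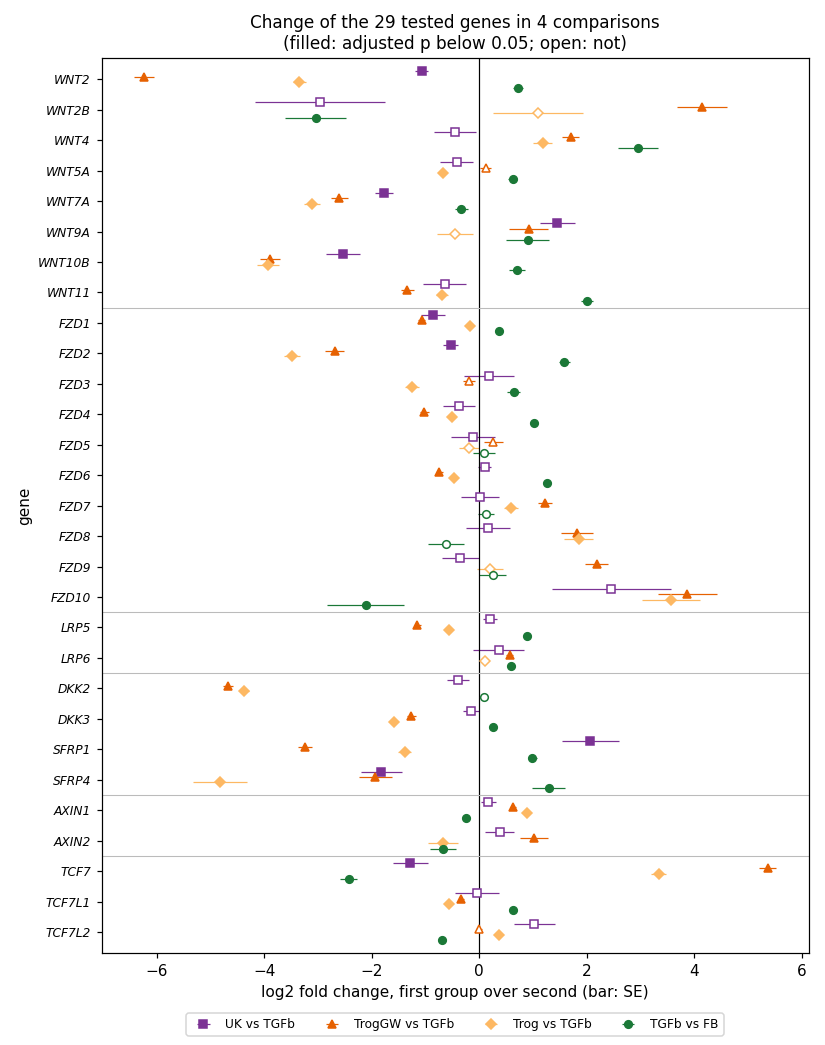
Log2 fold changes (horizontal axis, first-named group over second; bars are SE) of the 29 tested genes in UK, TrogGW and Trog against TGFb and in TGFb against FB; filled symbols have an adjusted p below 0.05, and fitted values of genes with 0 to 3 counts in a group (WNT2B in UK, FZD10 in TGFb, SFRP4 in Trog) are no bounds. WNT2 reaches -6.24 in TrogGW, DKK2 -4.37 in Trog, and TCF7 reaches 5.37 in TrogGW against -1.28 in UK.

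Other genes of the pathway were counted from 4 lists. Beside them, 68.2% of all genes were called in TGFb against FB. Against TGFb it was 32.1% in UK (70.8% without replicate 5), 85.9% in TrogGW and 81.7% in Trog. By library totals, 17.3% of all calls were higher in TGFb against FB. Against TGFb it was 83.4% in TrogGW and 81.5% in Trog. Of the genes for Wnt secretion, cofactors and surface regulators, 13 of 23 in the tables were tested. In TGFb against FB 8 rose and 2 fell (6 and 4 by library totals), among them the glypicans GPC4 (1.03 ± 0.0512) and GPC6 (2.91 ± 0.18) upward and the membrane-bound Wnt inhibitor APCDD1 (-1.65 ± 0.315) downward. The Wnt deacylase gene NOTUM fell to 0.0237 CPM in TGFb, against 0.294 CPM in FB. That TGFb mean lies below 0.0374 CPM, the level of 3 counts over the group, and no counting interval was computed for it. Against TGFb, 3 rose and 6 fell in UK (4 and 8 without replicate 5), 2 rose and 10 fell in TrogGW (6 and 6 by library totals) and 2 rose and 11 fell in Trog (5 and 8). Median changes were 0.32 in TGFb against FB (-0.02 for all genes) and, against TGFb, -0.71 in UK, -0.69 in TrogGW and -1.28 in Trog (0.09, 0.09 and 0.04 for all genes). The Wnt carrier WLS fell in UK to 137 CPM, against 428 CPM in TGFb (-1.64 ± 0.12, adjusted p = 5.23e-06). GPC4 averaged 45.8 CPM in TrogGW and 77.4 CPM in Trog against 814 CPM in TGFb, and the R-spondin receptor LGR4 48 CPM and 41.8 CPM against 206 CPM. APCDD1 rose in UK, TrogGW and Trog by 2.24 ± 0.331, 5.01 ± 0.2 and 4.43 ± 0.191, where TGFb averaged 0.344 CPM. From its level near the limit of counting in TGFb, NOTUM rose to 1.29 CPM in TrogGW and 0.625 CPM in Trog.

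Of 24 tested destruction complex and beta-catenin transducer genes, 13 rose and 7 fell in TGFb against FB (68.2% of all genes called), but 2 and 14 by library totals. APC, a scaffold of the complex, rose by 1.00 ± 0.0684, and the co-repressor TLE1 fell (-0.96 ± 0.0685). Against TGFb, 4 rose and 1 fell in UK, where 32.1% of all genes were called (11 and 6 without replicate 5, beside 70.8%). In TrogGW against TGFb 16 rose and 6 fell (22 and 1 by library totals), beside 85.9%. In Trog against TGFb 11 rose and 6 fell (21 and 3), beside 81.7%. The medians were 0.18 in TGFb against FB (-0.02 for all genes) and, against TGFb, -0.01 in UK, 0.36 in TrogGW and 0.01 in Trog (0.09, 0.09 and 0.04 for all genes). The Dishevelled gene DVL2 rose by 0.94 ± 0.0518 in TrogGW and 1.25 ± 0.0506 in Trog, and TLE1 by 1.83 ± 0.0769 in Trog. CTNNB1, the beta-catenin gene itself, averaged 412 CPM in TrogGW and 413 CPM in Trog against 715 CPM in TGFb (-0.80 ± 0.0553 and -0.79 ± 0.0497); the TrogGW change was 0.06 by library totals.

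Of 22 tested genes of beta-catenin-independent Wnt signals and planar polarity, 12 rose and 5 fell in TGFb against FB (5 and 10 by library totals), where 68.2% of all genes were called. With the lowest p among them were the polarity gene PRICKLE1 (0.95 ± 0.0508) and the calcium-dependent kinase gene CAMK2G (0.89 ± 0.0514). Against TGFb, 3 rose and 2 fell in UK, where 32.1% of all genes were called (11 and 5 without replicate 5, beside 70.8%). In TrogGW against TGFb 10 rose and 10 fell (13 and 6 by library totals), beside 85.9%. In Trog against TGFb 6 rose and 11 fell (15 and 3), beside 81.7%. The medians were 0.18 in TGFb against FB (-0.02 for all genes) and, against TGFb, 0.29 in UK, -0.01 in TrogGW and -0.19 in Trog (0.09, 0.09 and 0.04 for all genes). CAMK2G fell in TrogGW (-1.85 ± 0.0478) and Trog (-1.82 ± 0.0523). The atypical cadherin gene CELSR2 rose in UK (2.66 ± 0.152) and CELSR3 in TrogGW (2.45 ± 0.135). The Wnt co-receptor kinase genes ROR1 in Trog (-1.12 ± 0.0705) and RYK in TrogGW (-1.04 ± 0.0485) fell.

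Of 15 tested genes reported as beta-catenin targets, 5 rose and 7 fell in TGFb against FB (4 and 7 by library totals), where 68.2% of all genes were called. ZNRF3, APCDD1 and NOTUM are on this list and on that of the surface regulators, so they were counted in both. Against TGFb, 4 rose and 6 fell in UK, where 32.1% of all genes were called (6 and 8 without replicate 5, beside 70.8%). In TrogGW against TGFb 5 rose and 9 fell (7 and 6 by library totals), beside 85.9%. In Trog against TGFb 4 rose and 10 fell (5 and 8), beside 81.7%. The medians were -0.32 in TGFb against FB (-0.02 for all genes) and, against TGFb, -0.50 in UK, -0.69 in TrogGW and -1.03 in Trog (0.09, 0.09 and 0.04 for all genes). TNFRSF11B, which encodes the decoy receptor osteoprotegerin, averaged 8.59 CPM in UK, 4.71 CPM in TrogGW and 13.8 CPM in Trog against 117 CPM in TGFb. The cyclin gene CCND1 fell in TGFb against FB (-1.54 ± 0.0786) and rose in UK over TGFb (1.62 ± 0.205). TWIST1, a mesenchymal transcription factor gene, rose over TGFb by 1.27 ± 0.108 in UK, 1.75 ± 0.097 in TrogGW and 0.69 ± 0.0841 in Trog. In TrogGW against Trog, 9 of the 15 rose and 4 fell (10 and 3 by library totals). Of all genes 69.5% were called, 35.1% higher and 34.3% lower. Among the targets that rose was the growth factor gene FGF9 (2.86 ± 0.215). The median of the 15 was 0.58, against 0.01 for all genes. On the other lists, in the order above, 5 rose and 3 fell, 9 and 5, and 8 and 10. By library totals it was 7 and 2, 15 and 3, and 11 and 9. Their medians were 0.12, 0.05 and -0.04.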

How the data were processed

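Per the labels, RNA was made into stranded polyA libraries. Tools listed in the submitters' processing notes are STAR 2.7.9a, Salmon 1.5.2, fastp 0.23.1, featureCounts and Subread 2.0.1, without their roles; for genome build, annotation and strand setting, the sources used here give nothing. Raw integer read counts per gene symbol were deposited by the authors, 1 table per library. In R 4.3.3 with edgeR 4.0.16, genes were filtered on expression (minimum count 10, minimum total 15) and scaled by TMM over all 25 libraries. Each of the 9 comparisons was tested by the quasi-likelihood F test with dispersion from only its 10 libraries, because UK replicate 5 stands apart, and BH adjustment over 10699 genes. The SE of a log2 fold change is its size divided by the root of the F statistic. CPM divides counts by the library total times its TMM factor.

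Members and lists were chosen with earlier results of these data known. Values in every library, or ranges, are given for members that average 5 CPM or more in their highest group or called with at least a 4-fold change in TGFb against FB or a drug group against TGFb, which are 25 genes. Of each list, the 2 called genes with the lowest p per direction are candidates for naming. Other genes named are marked by their counts or ranges. A group at 0 counts was set to 3 counts for a bound. For members with 1 to 3 counts in a group a ratio with a 95% interval was computed, but not for genes of the lists. Replicates of a group differed beyond sampling noise. The RefSeq gene table (assembly F.catus_Fca126_mat1.0), which holds all 42 genes, gave names, neighbours and overlaps only. Code was tested on simulated counts. Alternatives were other scalings, filters, DESeq2 1.42.0, limma 3.58.1 voom, fits of all libraries, a replicate block and leaving out each library. Figures were drawn with matplotlib 3.10.9.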

Additional observations from a re-analysis of the deposited data

Results flagged for a closer look

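Values that lay far from the other 4 libraries of their group were found in 14 of 124 gene and group combinations, where chance flags about 1 in 20. Of these, 10 were in UK replicate 5. It was the lowest UK library for WNT4 (0.0915 CPM, the others 1.03 to 1.13), WNT5A (3.57 CPM, the others 12 to 14.2), FZD6 (103 CPM, the others 138 to 148), LRP6 (8.33 CPM, the others 77.7 to 104) and TCF7L1 (9.97 CPM, the others 61.8 to 74.4). It was the highest for WNT11 (20.2 CPM, the others 4.52 to 5.64), FZD3 (21.5 CPM, the others 4.02 to 5.55), FZD10 (1.01 CPM, the others 0.0451 to 0.245), DKK3 (121 CPM, the others 72 to 81.4) and TCF7L2 (352 CPM, the others 89.1 to 111). SFRP1, at 8.69 CPM against 80.6 to 124 CPM, was also below but within the critical gap.

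The other 4 were DKK2 in TGFb replicate 1 (1390 CPM, the others 1130 to 1180), FZD6 in TrogGW replicate 1 (64 CPM, the others 77.6 to 83.1), FZD7 in FB replicate 2 (3.17 CPM, the others 4.72 to 4.91) and SFRP1 in TrogGW replicate 5 (3.3 CPM, the others 1.81 to 2.15).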

How the results depend on the processing

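Leaving out each library in turn gave 23 to 24 genes called for TGFb vs FB, 23 to 24 for Trog vs TGFb, 24 to 25 for TrogGW vs TGFb, 9 to 20 for UK vs TGFb, 24 to 26 for TrogGW vs Trog, 16 to 27 for UK vs Trog, 23 to 25 for Trog vs FB, 25 to 26 for TrogGW vs FB and 10 to 20 for UK vs FB. The 20, 27 and 20 in the UK comparisons came without UK replicate 5. There 7642, 7940 and 8347 of all genes were called, in place of 3434, 4553 and 4242. In 1 fit of all libraries except UK replicate 5, 21 of the 29 genes were called for UK vs TGFb and 20 for UK vs FB. Of all genes that fit called 7657 and 8396. Sign changes are listed here only for values called with the main setting or with the alternative. They were looked for in the 29 genes and in the genes of the lists that were candidates for naming. Signs of the other list genes were not compared. Without UK replicate 5, in the fit of 2 groups and in that of all other libraries, FZD3 was -0.60 and TCF7L1 0.23 in UK vs TGFb, WNT11 -0.59 in UK vs Trog and TCF7L2 -0.28 in UK vs FB, each of opposite sign to the value with it. With another library left out, the far end of their ranges was 0.34, -0.16, 0.20 and 0.46. One fit of all 25 libraries called 4089 genes in place of 7300 for TGFb vs FB, 4620 in place of 7434 for TrogGW vs Trog and 5408 in place of 3434 for UK vs TGFb; without UK replicate 5 the last was 7642. Library totals alone turned the sign, in TGFb vs FB, of DKK2 (-0.29), DKK3 (-0.11) and FZD1 (-0.02); in Trog vs TGFb, of AXIN2 (0.01), FZD1 (0.51), FZD4 (0.18), FZD5 (0.50), FZD6 (0.21), LRP5 (0.11), TCF7L1 (0.11), WNT11 (0.00) and WNT5A (0.01); in TrogGW vs TGFb, of CTNNB1 (0.06), CXXC5 (0.18), FZD3 (0.67), FZD6 (0.12), TCF7L1 (0.53) and TCF7L2 (0.85); in Trog vs FB, of WNT5A (0.25); and in TrogGW vs FB, of LRP5 (0.21). The cause was not tested. DESeq2 size factors, DESeq2, voom and both other filters reversed no sign of such a value. Replicate numbers did not pair the libraries (0 to 2 of 5 correlated best with their own number). The replicate block gave 24, 24, 25, 7, 26, 16, 24, 25 and 10 of the 29 genes called in the 9 comparisons, in the order above. Of all genes it called 7077, 8644, 9134, 2439, 7306, 3628, 8736, 9140 and 3345. The rare counts of 13 genes set the limit of depth.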
